A study of Mus musculus with 4 samples.

Results

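The colony-stimulating factors are cytokines that keep macrophages, microglia and granulocytes alive and direct their growth. The genes described here are 6 members of this system, namely the ligands Csf1 and Il34, their shared receptor Csf1r, the receptor chains Csf2ra and Csf2rb of the granulocyte-macrophage factor, and the granulocyte factor receptor Csf3r. They were taken by symbol from a table of 48897 genes, in which all 6 were found, and all 6 were among the 17766 genes that passed the filter on low counts. The libraries came from whole retinas of wild-type C57BL/6 mice (C57BL/6J in the study's methods) on postnatal day 9. In the anti-miR-124 group, 0.6 nmol of an antagomir against miR-124-3p in 1 μl had been injected into the vitreous of the left eye on postnatal day 3. An antagomir is a modified antisense oligonucleotide that binds a mature microRNA. The NC (negative control) group consisted of right eyes injected with the same amount of a scrambled oligonucleotide, so both groups carried an intravitreal injection, and the eye and the treatment cannot be told apart. Each mouse was treated in both eyes, but whether libraries that share a number in the deposited table came from the same mice is not given in the sources used here. Each group had 2 libraries, which the study treats as biological replicates, made from mixed retinas of at least 2 litters. How the retinas were divided between the libraries of a group is not given in the sources used here, so the p-values measure the spread between these libraries, part of which may be technical.

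Signalling through Csf1r, a receptor tyrosine kinase of the macrophage lineage, is required for microglia, the resident macrophages of the retina, to survive. Csf1 and Il34 bind the same receptor although their sequences are unrelated, and in the central nervous system Il34 is known mainly as a product of neurons and Csf1 of glia. The granulocyte-macrophage receptor pairs a ligand-specific alpha chain (Csf2ra) with a beta chain (Csf2rb) that also serves interleukin-3 and interleukin-5. Csf3r is the receptor that neutrophils and their precursors carry.

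The libraries are called NC-A, anti-A, NC-B and anti-B, where A and B (pair A and pair B) each stand for a number that a left-eye and a right-eye library share in the deposited table. Between 16317239 and 18726963 reads were counted per library. Markers of retinal neurons and Müller glia were present in all libraries, with all 16 genes of the list at 1 TPM (transcript level per gene length, scaled to the library total) or more in both NC libraries. Among them, the cone genes Opn1sw and Arr3, named after their values were seen, had log2 fold changes of -0.82 and -0.61 without overlap between the groups (adjusted p = 0.855 and 0.989, edgeR), while the list's median was -0.02. NC-A stood apart, as 21 genes of the lens summed to 65100 TPM in it and to between 131 and 185 TPM in the other libraries. Anti-B stood apart in markers of microglia, whose 20 genes summed to 769 TPM, against 248 and 309 TPM in the NC libraries and 295 TPM in anti-A. In whole tissue, a larger number of cells of a type and more RNA per cell cannot be told apart.

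For all 6 genes the fitted difference was in favour of anti-miR-124, and it lay mostly in pair B. The median log2 fold change of the 6 genes was 0.86, against 0.0007 over all genes tested. None of the 6 had an adjusted p-value under 0.05, as was the case for every gene tested (0% called, 694 genes having an unadjusted p-value under 0.05, edgeR's quasi-likelihood test, and 36 genes called by DESeq2, 0 of them a member). Csf1 and Csf1r were 2 of the 396 genes that were higher at an unadjusted p-value under 0.05, a share of 2.23% of all genes tested, and 0 of the 6 were among the 1.68% that were lower. With the number shared by the libraries as a replicate block, Csf1r was no longer under 0.05 unadjusted, and Csf1 was. In 4 of the 6 genes, Csf1, Il34, Csf1r and Csf3r, both anti-miR-124 libraries lay above both NC libraries in TMM-normalized counts, which was so for 16.5% of all genes tested, and 0 of the 6 lay below without overlap, as 16.8% did. Within pairs, 0 of the 6 genes were at least 2-fold higher in pair A (1.59% of all genes tested) and 4 of 6 in pair B (3.73% of all genes tested). None was at least 2-fold lower, against 3.15% (pair A) and 1.6% (pair B) of all genes tested.

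The calls depended on which libraries and genes entered the fit. Without anti-A, which left 1 library in that group, Csf1 (log2 fold change 1.57), Csf1r (0.98) and Csf2rb (2.65) passed the threshold, with adjusted p-values of 0.00156, 0.00667 and 0.00429 (edgeR), as did 256 genes in all. The same 3 genes also passed when the filter on low counts was left out, among 379 genes in all. Without anti-B, 12 genes passed by edgeR (962 at an unadjusted p-value under 0.05), 0 of them a member. Without NC-A, the library with lens transcripts, 0 genes passed by edgeR (333 at an unadjusted p-value under 0.05), and the log2 fold changes were 0.91 for Csf1, 1.71 for Il34, 0.86 for Csf1r, 0.29 for Csf2ra, 1.96 for Csf2rb and 0.47 for Csf3r.

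**Figure D1:**
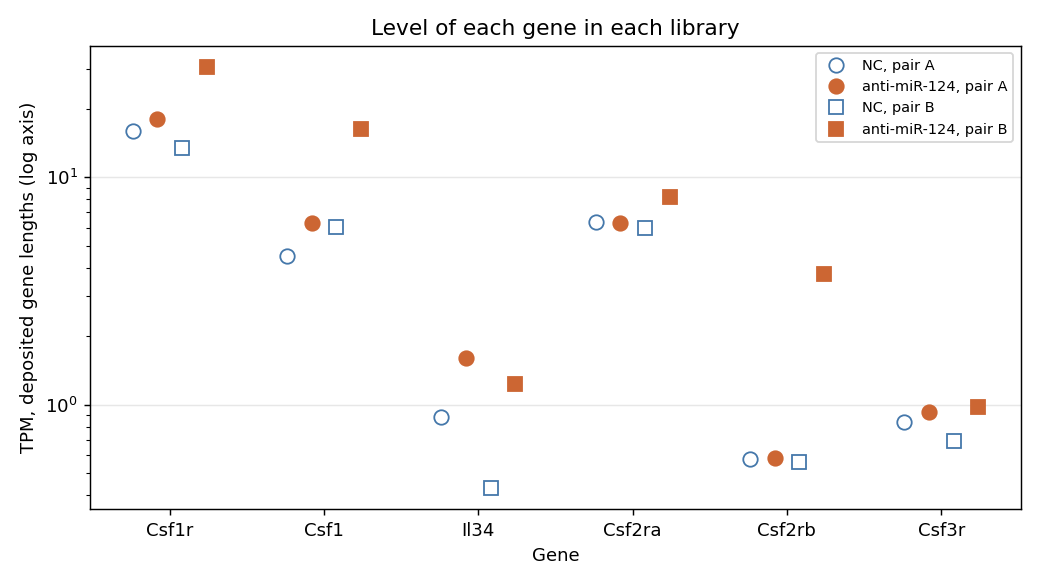
TPM of each gene (log axis) in the 4 libraries, with circles for pair A and squares for pair B, and filled symbols for the anti-miR-124 group. For Csf1r, Csf1, Csf2ra and Csf2rb, anti-B lies above the other libraries, at 30.5, 16.3, 8.21 and 3.75 TPM. It is also the highest library for Csf3r, by a small margin (0.975 TPM against 0.924 in anti-A), but not for Il34.

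Csf1, the macrophage colony-stimulating factor, is encoded on the minus strand of chromosome 3 from 107741048 to 107760469 (GRCm38). It had 106 and 145 counts in NC-A and anti-A and 145 and 409 in NC-B and anti-B. In TPM, a scale per gene length, these were 4.52 and 6.28 in pair A and 6.04 and 16.3 in pair B. One library was therefore far above the rest. The groups did not overlap, but by a small margin, as anti-A and NC-B had the same 145 counts and differed only after scaling. The mean TPM was 5.28 ± 1.07 (SD, n = 2) in the NC group and 11.3 ± 7.06 (SD, n = 2) in the anti-miR-124 group. The log2 fold change was 1.05 ± 0.41 (standard error, SE, a 2.07-fold difference, adjusted p = 0.989, edgeR's quasi-likelihood test). By pair, the ratio of TMM-normalized counts was 1.29-fold in pair A, with an exact 95% binomial counting interval of -0.003 to 0.74 on the log2 scale. In pair B it was 2.70-fold (log2 1.43, interval 1.16 to 1.72). Intervals of this kind cover counting error only. Without anti-B, the log2 fold change of Csf1 was 0.22 (standard error 0.22).

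Il34, the other ligand of Csf1r, lies on the minus strand of chromosome 8 from 110741829 to 110805945 and was measured by few reads. Its counts were 10 in NC-A and 18 in anti-A, and 5 and 15 in pair B. The levels were 0.878 and 1.61 TPM in pair A and 0.429 and 1.23 TPM in pair B, so the anti-miR-124 library was the higher one in both pairs and the groups did not overlap. Unlike Csf1, its highest library was anti-A. The log2 fold change was 1.05 ± 0.52 (SE, adjusted p = 0.989, edgeR). The counting intervals of the log2 ratio included 0 in both pairs, from -0.43 to 2.04 in pair A and from -0.01 to 3.34 in pair B, so no difference was detectable at this depth within a pair. With each library left out in turn, the log2 fold change lay between 0.57 and 1.71. The level of Csf1 was higher than that of Il34 in every library, with TPM ratios of Csf1 to Il34 of 5.14 and 3.91 in pair A and 14.1 and 13.2 in pair B.

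Csf1r had the highest TPM of the 6 genes with the deposited gene lengths. It lies on the plus strand of chromosome 18 from 61096809 to 61131139 and had 373 and 415 counts in NC-A and anti-A, and 322 and 762 in NC-B and anti-B. Its levels were 16.02 and 18.1 TPM in pair A and 13.5 and 30.5 TPM in pair B. The libraries of pair A and NC-B lay close together, and anti-B stood apart from them. The group means were 14.8 ± 1.78 TPM (SD, n = 2) for NC and 24.3 ± 8.79 TPM (SD, n = 2) for anti-miR-124. The log2 fold change was 0.66 ± 0.24 (standard error, a 1.59-fold difference, adjusted p = 0.989, edgeR). In pair A the ratio was 1.05-fold, with a counting interval of -0.14 to 0.28 on the log2 scale, and in pair B it was 2.27-fold (log2 1.18, interval 0.99 to 1.37). Without anti-B, the log2 fold change was 0.25 (standard error 0.16).

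Microglia genes differed in the same library as Csf1r, and their part in the difference was not tested. All 20 genes of the list, which does not hold Csf1r, were tested. Both anti-miR-124 libraries lay above their NC partner for 7 genes, against 22.8% of all genes tested, and 0 genes were lower in both pairs, against 24.0% of all genes tested. The median log2 ratio of the list was -0.11 in pair A and 1.62 in pair B. In pair B, 14 of the 20 genes were at least 2-fold higher, against 3.73% of all genes tested. In pair A, 0 genes were at least 2-fold higher (1.59% of all genes tested) and 2 at least 2-fold lower (3.15%). No gene of the list was without counts in all libraries. The log2 ratios of the protease Ctss were 0.09 (pair A) and 2.08 (pair B), and those of the complement genes C1qb and C1qc were -0.13 and 1.91, and 0.0005 and 1.73. The genes of the list were not uniform, with log2 ratios from -1.17 to 0.60 in pair A and from 0.16 to 2.49 in pair B. In pair B, 13 of the 20 genes had a larger log2 ratio than Csf1r, 11 a larger one than Csf1, and 0 a larger one than Csf2rb. Relative to the sum of the microglia genes in TPM, Csf1r amounted to 5.18% and 6.14% in NC-A and anti-A, and to 5.44% and 3.97% in NC-B and anti-B. The level of Csf1 was 1.46% and 2.13% of the same sum in pair A and 2.43% and 2.12% in pair B. Without anti-B, the median log2 fold change of the microglia list was 0.10, and it was 0.80 with all libraries and 1.03 without NC-A.

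**Figure D2:**
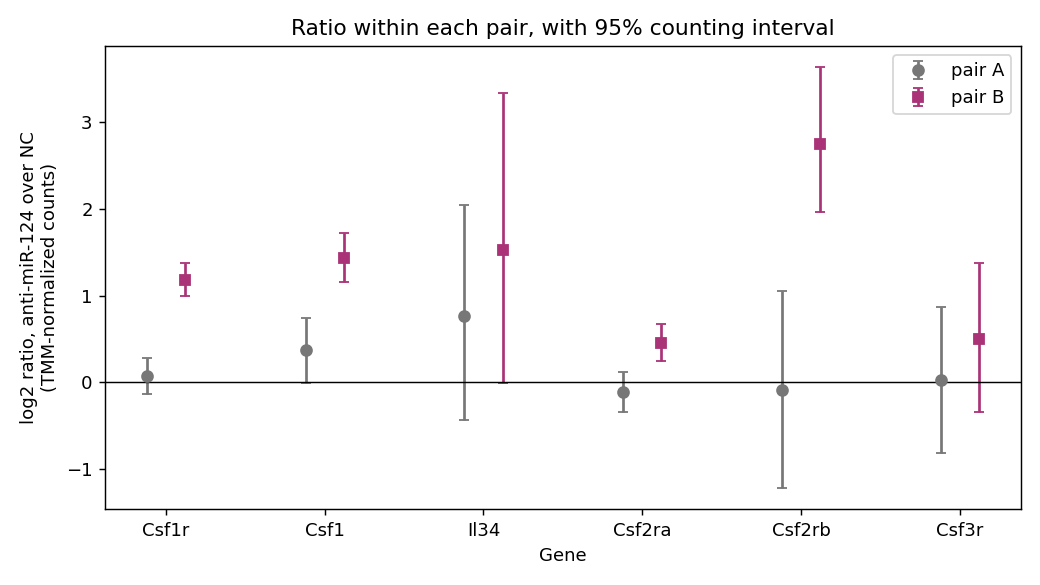
Log2 ratio of TMM-normalized counts, anti-miR-124 over NC, for each gene in pair A (circles) and pair B (squares), with exact 95% binomial counting intervals. The intervals of pair A include 0 for all 6 genes, and those of pair B lie above 0 for Csf1r, Csf1, Csf2ra and Csf2rb.

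Csf2ra, the alpha chain that binds granulocyte-macrophage colony-stimulating factor, was among the genes that the study carried to RT-qPCR. The study states that its candidate genes showed a trend by RT-qPCR like that in its sequencing data. It lies on the minus strand of chromosome 19 from 61217191 to 61228463. It had 318 and 312 counts in NC-A and anti-A and 308 and 442 in NC-B and anti-B. Here anti-A lay between the NC libraries in TPM (6.31 against 6.33 and 5.99), and anti-B was higher, at 8.21. The groups thus overlapped. The log2 fold change was 0.18 ± 0.15 (SE, adjusted p = 0.989, edgeR), and it was -0.004 without anti-B. In pair B alone the ratio was 1.38-fold (log2 0.46, counting interval 0.25 to 0.67), which 10.4% of all genes tested exceeded. As a share of the microglia sum, Csf2ra stood at 2.05% and 2.14% in pair A and at 2.41% and 1.07% in pair B.

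The primers with which the study measured Csf2ra show which part of the gene its RT-qPCR covered, and they are printed here in lower case from 5′ to 3′.
Csf2ra forward: ctgctcttctccacgctactg
Csf2ra reverse: gagactcgccggtgtatcc
Both primers matched 4 of the 8 Csf2ra transcripts in GENCODE M21 exactly, and the product was 200 bases long in each. In Csf2ra-201, the longest coding transcript, the forward primer lies in exon 2 (chr19:61227297-61227317) and the reverse primer in exon 3 (chr19:61227031-61227049), both in the coding sequence. The transcript is 1849 bases long, while the deposited length of Csf2ra is 9466 bases. The deposited interval reaches further downstream than the gene of GENCODE M21, which runs from 61223957 to 61228429. Counts of Csf2ra can therefore include reads from outside the coding transcript. The length also sets the order of the genes by level. With deposited lengths, Csf1r (mean over the 4 libraries 19.5 TPM) was followed by Csf1 (8.28), Csf2ra (6.71), Csf2rb (1.37), Il34 (1.04) and Csf3r (0.858). When the length of the longest coding GENCODE transcript was used for these genes, an alternative chosen after seeing the data, Csf2ra came first with 34.4 TPM, before Csf1r with 18.2 TPM, and Csf3r stood at 1.38 TPM. With deposited lengths, the ranges over libraries overlapped between all neighbours in this order except Csf2ra and Csf2rb, whose ranges were 5.99 to 8.21 and 0.561 to 3.75 TPM. Csf1r was above Csf1 in each library, although their ranges over libraries overlapped.

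Csf2rb, the beta chain shared by the receptors for granulocyte-macrophage factor, interleukin-3 and interleukin-5, lies on the plus strand of chromosome 15 from 78325798 to 78351001. It had 15 counts in 3 libraries, namely both NC libraries and anti-A, and 105 counts in anti-B. In TPM, the first 3 lay between 0.561 and 0.583, and the last at 3.75. Its ratio in pair B, 6.71-fold (log2 2.75, counting interval 1.96 to 3.63), was the largest of the 6 genes, and 0.45% of all genes tested had a larger one. In pair A the log2 ratio was -0.08 (counting interval -1.22 to 1.05) with TMM normalization and 0.02 by TPM. The log2 fold change over both pairs was 1.88 ± 0.81 (SE, adjusted p = 0.989, edgeR), and it was 0.003 (standard error 0.61) without anti-B. The ratio of Csf2rb to Csf2ra in TPM was between 0.0906 and 0.0936 in the other libraries and 0.457 in that library.

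A neighbouring copy, Csf2rb2, encodes the beta chain specific to interleukin-3 in mice and lies on the minus strand of chromosome 15 from 78282507 to 78305721. Its counts were 5 and 12 in pair A and 5 and 63 in pair B. The fitted log2 difference was 2.77 (standard error 0.83, adjusted p = 0.989, edgeR), and its groups did not overlap. Reads of this pair of genes cannot always be told apart, since 17.1% of the stretches of 50 bases in coding transcripts of Csf2rb also occur in those of Csf2rb2. The longest run of identical bases, 242 in all, lies in the coding sequence of exon 14 of both genes (chr15:78348577-78348818 in Csf2rb and chr15:78284630-78284871 in Csf2rb2, GRCm38). It is printed in the direction of transcription because reads within it match both genes.
Csf2rb and Csf2rb2 shared run: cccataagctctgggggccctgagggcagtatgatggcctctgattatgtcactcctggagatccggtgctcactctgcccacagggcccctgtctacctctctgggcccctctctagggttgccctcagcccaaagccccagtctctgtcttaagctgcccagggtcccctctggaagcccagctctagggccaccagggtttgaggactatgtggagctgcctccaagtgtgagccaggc
How the authors assigned reads that match both genes is not given in the sources used here. The split of counts between Csf2rb and Csf2rb2 is therefore uncertain. Both genes were at their highest in the same library, but their counts are not independent where reads match both.

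Csf3r, the receptor for granulocyte colony-stimulating factor, lies on the plus strand of chromosome 4 from 126023441 to 126044975 and was nearly level across the libraries. It had 25 and 27 counts in pair A and 21 and 31 in pair B, in the order NC and anti-miR-124. These gave 0.842 and 0.924 TPM in pair A and 0.691 and 0.975 TPM in pair B. The groups did not overlap, but by a small margin, and the log2 fold change was 0.25 ± 0.34 (SE, adjusted p = 0.989, edgeR). Counting intervals included 0 in both pairs, from -0.81 to 0.87 in pair A and from -0.35 to 1.37 in pair B. A noncoding gene on the opposite strand, Gm32908, overlaps the start of Csf3r and had between 0 and 7 counts per library. Neutrophil markers were scarce. Of the 16 genes of that list, 2 passed the filter, Elane, Ly6g and Mpo had no count in any library, and the list summed to 11.9 and 12.1 TPM in the NC libraries and 13.2 and 14.5 TPM in the anti-miR-124 libraries. The 2 tested genes, Mmp9 and Prtn3, had log2 fold changes of 0.20 and 0.36, and made up 4.38 and 3.88 TPM of the sum in NC-A. Of the genes below the filter, 4 are named after their values were seen. Mmp8 and Cxcr2 had counts only in anti-B, 6 and 4. In the other direction, S100a9 and Ltf had 1 count each in anti-B and 2 to 5 in the other libraries.

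**Figure D3:**
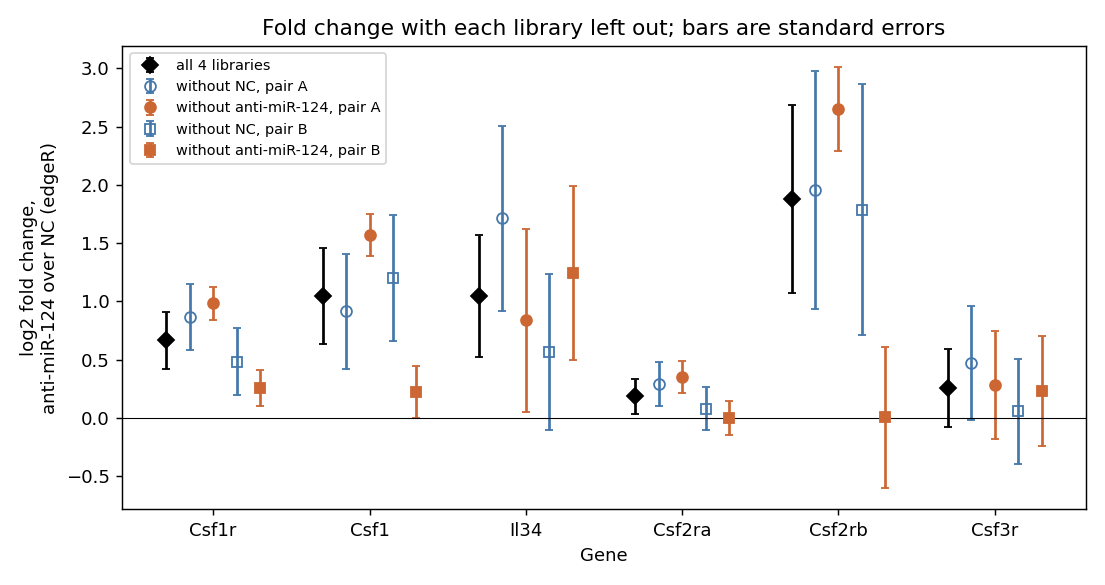
Log2 fold change from edgeR for each gene with all 4 libraries (diamonds) and with each library left out in turn, with standard errors. Without anti-B (filled squares), Csf2ra and Csf2rb lie at -0.004 and 0.003, whereas Il34 is at 1.24.

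The other ligands and receptors of the family were at or near the limit of detection, apart from Il3ra. Csf2, the granulocyte-macrophage factor itself, had no count in any library. Csf3, the granulocyte factor, had 1 count in each library, and Il3, Il5 and Il5ra had between 0 and 3. A count of this size does not show a difference at this depth. Il3ra, the alpha chain of the interleukin-3 receptor, had 35 and 46 counts in pair A and 42 and 64 in pair B (log2 fold change 0.44, standard error 0.28, adjusted p = 0.989, edgeR). Ptprz1 and Sdc1 are further binding partners of Il34. Ptprz1, a receptor phosphatase of glia and their progenitors, was at 49.8 TPM on average over the libraries, with a log2 fold change of -0.11 (standard error 0.08). Sdc1, a syndecan, had log2 ratios of -1.11 in pair A and 0.69 in pair B, so the pairs had opposite signs.

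Genes through which these receptors signal had medians near those of all genes in pair A. All 25 genes of the Csf1r signalling list were tested, and their median log2 ratios were -0.04 (pair A) and 0.17 (pair B). In all, 7 were higher and 1 was lower in both pairs, against 22.8% and 24.0% of all genes tested, and 6 were at least 2-fold higher in pair B, against 3.73%. Among its abundant genes, the kinases Akt1 and Mapk3 and the phosphoinositide 3-kinase subunit Pik3r1 had log2 fold changes of 0.05, 0.07 and -0.06. The adaptor Tyrobp, which also belongs to the microglia list, had log2 ratios of -0.47 in pair A and 2.13 in pair B. For the list of beta-chain and Csf3r signalling (18 genes, all tested), 6 genes had positive and 2 negative ratios in both pairs (22.8% and 24.0% of all genes tested), and the median log2 fold change was 0.12. Its median log2 ratios were -0.06 (pair A) and 0.20 (pair B), and 3 of the 18 genes were at least 2-fold higher in pair B (3.73% of all genes tested). Among its most abundant genes, the survival factor Mcl1 had a log2 fold change of -0.02, the phosphatase Ptpn11 of 0.15, the kinase Jak1 of 0.06 and the transcription factor Stat3 of 0.33 (standard errors 0.07, 0.07, 0.07 and 0.21). No gene of either list had an unadjusted p-value under 0.05 (edgeR), against 2.23% of all genes tested that were higher and 1.68% that were lower.

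Transcription factors of myeloid cells were less uniform. Of 14 genes in the list, 11 were tested, of which 4 were higher and 1 was lower in both pairs (22.8% and 24.0% of all genes tested), and the median log2 ratios were -0.44 (pair A) and 0.69 (pair B). Among the abundant ones, Maf, Bhlhe41 and Sall1 had log2 fold changes of -0.63, 0.03 and -0.04. Maf had 1140 counts in NC-A, the library with lens transcripts, and 570 in anti-A, 612 in NC-B and 642 in anti-B. Its log2 ratios were -1.08 in pair A and 0.007 in pair B. For Bhlhe41 and Sall1 the log2 ratios were -0.44 and -0.60 in pair A and 0.48 and 0.69 in pair B. Runx1 and Cebpb, named here after their values were seen, were the 2 of 11 tested genes with an unadjusted p-value under 0.05 (log2 fold changes 1.35 and 0.93, adjusted p = 0.989 for both, edgeR). Of all genes tested, 2.23% were higher at that threshold. Runx1 had 18 and 42 counts in pair A and 26 and 77 in pair B. Without anti-B, the median log2 fold change of the list was -0.16, against 0.30 with all libraries.

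**Figure D4:**
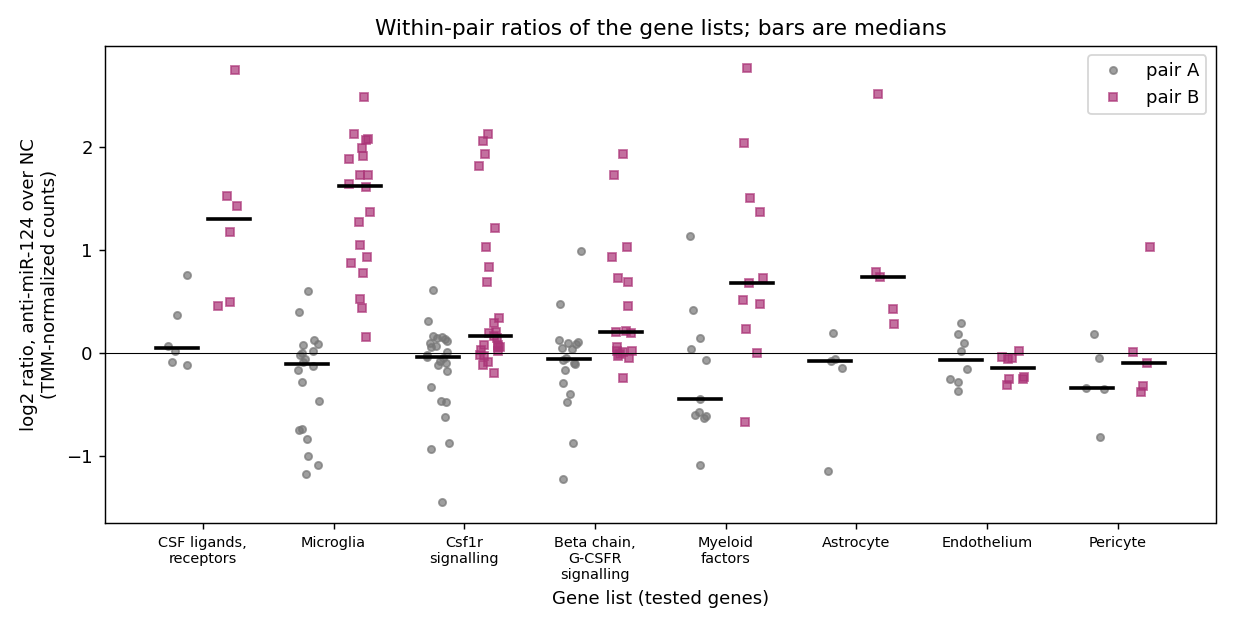
Log2 ratio of TMM-normalized counts, anti-miR-124 over NC, for each tested gene of 8 lists in pair A (circles) and pair B (squares), with medians as black bars. Medians of pair B are 1.31 for the ligands and receptors, 1.62 for microglia and 0.74 for astrocytes, and -0.14 and -0.09 for endothelium and pericytes.

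Markers of other cells that could carry these genes were compared in the same way, and their part in the differences was not tested. Monocyte genes summed to 13.7 and 0.767 TPM in the NC libraries of pair A and pair B and to 2.67 and 11.6 TPM in the anti-miR-124 libraries, with 2 of 8 genes tested (S100a4 and F13a1) and Chil3 and Ly6c2 without a count. S100a4 alone made up 12.3 TPM of the sum in NC-A and 7.58 TPM in anti-B, and the monocyte receptor Ccr2, named after its values were seen, had no count in pair A, 2 counts in NC-B and 25 in anti-B. Macrophages of tissue borders were represented by 7 genes, which summed to 7.86 and 3.43 TPM in NC and to 3.01 and 19.3 TPM in anti-miR-124, in the order pair A and pair B. Of these, Lyve1 and Mrc1 were tested, and Cd209f had no count. Astrocyte genes, of which 5 were tested, summed to 93.3 and 52.5 TPM in NC and to 61.2 and 195 TPM in anti-miR-124. Gfap, the intermediate filament of astrocytes and of Müller glia under stress, had 1496 and 720 counts in pair A and 631 and 3764 in pair B, and S100b had a log2 fold change of 0.31. Of 8 endothelial genes tested (median log2 fold change -0.13), 0 were at least 2-fold higher in pair B, against 3.73% of all genes tested. Of 5 pericyte genes tested (median -0.17), 1 was, namely Cspg4, with log2 ratios of -0.81 (pair A) and 1.03 (pair B). Pigment epithelium genes (0.47, 8 tested) had their larger median log2 ratio in pair A, 0.87 against 0.05. Lens genes (19 of 21 tested) had a median log2 fold change of -7.64, and of 0.56 without NC-A.

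The genes most like each member were found by the Euclidean distance between log2 TMM-normalized counts centred on each gene's mean over the 4 libraries, among at least 15740 genes at 1 TPM or more in every library. For Csf1, these were Mt2 (distance 0.141), Trim12a (0.192) and Rab32 (0.197). The nearest genes to Csf1r were Lrrc10b (0.0820), Selplg (0.0886) and Scarf2 (0.101), and those to Csf2rb were Adam8 (0.201), Tnfrsf1b (0.277) and Lcn2 (0.317). Adam8 had 25, 24 and 24 counts in the libraries in which Csf2rb had 15, and 140 in anti-B. The distances were shortest for Csf2ra and Csf3r, which had small fitted differences. Their nearest genes were LOC108168974 (0.0261), followed by Slc50a1 (0.0266), for Csf2ra and Pcsk1n (0.0231) for Csf3r. The 3 genes nearest to Il34 have Ensembl identifiers in place of symbols and 19 counts or fewer in each library. With 4 libraries, likeness of this kind describes these libraries only.

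The promoters of Csf1, Csf2ra and Csf3r were available in the RefSeq promoter table (GRCm38.p6), as was that of Csf2rb2. Each window runs from 250 bases before to 50 bases after the transcription start. They were searched on both strands for 4 motifs of factors active in myeloid cells or downstream of cytokines, GAGGAAGT for PU.1, TTCNNNGAA for STAT, GAAA, any 2 bases and GAAA for IRF and TGANTCA for AP-1. The STAT and AP-1 motifs read the same on both strands, and the motifs can overlap. Over all 32851 windows of the table, 3.2% held the PU.1 motif, 8.3% the STAT motif, 3.44% the IRF motif and 7.81% the AP-1 motif. The windows of Csf1, Csf2ra and Csf3r held none of them, whereas that of Csf2rb2 held a STAT match at bases 236 to 244 of the window and a PU.1 match on the opposite strand at bases 278 to 285. The windows of Csf1, with a higher level in both pairs, of Csf2ra, with nearly level counts in pair A, and of Csf2rb2 are printed with motif matches in capitals, on the minus strand of chr3:107760420-107760719, chr19:61228369-61228668 and chr15:78305672-78305971.
Csf1 promoter: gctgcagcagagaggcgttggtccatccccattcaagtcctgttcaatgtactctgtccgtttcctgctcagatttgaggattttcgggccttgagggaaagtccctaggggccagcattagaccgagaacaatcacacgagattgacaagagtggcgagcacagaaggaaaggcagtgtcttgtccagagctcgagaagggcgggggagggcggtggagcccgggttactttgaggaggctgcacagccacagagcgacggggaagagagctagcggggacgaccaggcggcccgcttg
Csf2ra promoter: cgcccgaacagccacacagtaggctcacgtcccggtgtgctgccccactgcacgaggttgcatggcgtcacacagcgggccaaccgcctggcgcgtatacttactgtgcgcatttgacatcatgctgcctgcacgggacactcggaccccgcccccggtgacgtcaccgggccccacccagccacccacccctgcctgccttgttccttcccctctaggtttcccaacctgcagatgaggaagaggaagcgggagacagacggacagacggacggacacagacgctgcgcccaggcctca
Csf2rb2 promoter: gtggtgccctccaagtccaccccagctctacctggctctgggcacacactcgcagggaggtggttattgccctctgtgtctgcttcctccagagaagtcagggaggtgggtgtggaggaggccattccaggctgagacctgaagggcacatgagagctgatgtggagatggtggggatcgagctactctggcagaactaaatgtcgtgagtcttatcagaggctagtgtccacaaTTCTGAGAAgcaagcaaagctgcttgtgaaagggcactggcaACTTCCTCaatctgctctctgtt
A match describes the letters of a window only, and the binding of these factors was not measured.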

How the data were processed

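Raw read counts for 4 libraries were deposited by the authors in one table, with gene lengths and positions. Reads were aligned with HISAT2 according to the submitters' processing notes, which name mm9, although the deposited positions of all 6 genes overlap those of GRCm38 (GENCODE M21). The counting tool is not given in the sources used here. A further 4 columns of RPKM values that the authors deposited in the table were not used. Columns were assigned to groups by the eye they name.

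TPM values were computed from counts and lengths as in the study's methods. Single genes were tested with edgeR 4.0.16 (R 4.3.3, quasi-likelihood test, TMM normalization, filterByExpr, no covariate, both directions), with Benjamini-Hochberg adjustment over all genes tested and a threshold of 0.05. Standard errors are the log2 fold change divided by the square root of the F statistic. DESeq2 1.42.0 was an alternative. Exact binomial intervals at 95% used scipy 1.17.1, with Python 3.11.15, numpy 2.4.6 and pandas 2.3.3. Duplicates were looked for by chi-square, and the lowest value for any pair of libraries was 2.72 per degree of freedom.

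Genes named are the 6 members, their relatives, the 4 most abundant tested genes of each signalling list and of the myeloid factors, and 2 to 4 of the marker lists of immune cells and astrocytes, with other genes marked as chosen after their values were seen. The values of some genes under this rule are not reported here. The members and the 14 lists were chosen with earlier results of these data known. No set test was run. The mature sequence of miR-124-3p was not used here.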

Additional observations from a re-analysis of the deposited data

How the results depend on the processing

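With all libraries, the log2 fold changes of Csf1, Il34, Csf1r, Csf2ra, Csf2rb and Csf3r kept their direction and stayed above an adjusted p-value of 0.05 with DESeq2's size factors, upper quartile or total count scaling, a mean of at least 10 counts, the lens genes left out before normalization and DESeq2's Wald test. Without a filter on low counts, Csf1 (1.05), Csf1r (0.67) and Csf2rb (1.88) had adjusted p-values of 2.55e-06, 2.68e-06 and 9.94e-05 (edgeR), and 379 genes passed. In that fit edgeR gave all genes at a given level one common spread, with infinite prior degrees of freedom against 4.51 with the filter. DESeq2 called 36 genes, 0 of them a member.

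The numbers shared by the columns did not enter the main fit. No source used here says that they mark the same mice, a litter, batch or day. The deviations of same-numbered libraries correlated at -0.162 over genes. Ratios and intervals within pairs, and counts of genes higher or lower in both pairs, use these numbers as a description only. With the replicate block, the values were 0.93 for Csf1, 1.08 for Il34, 0.63 for Csf1r, 0.18 for Csf2ra, 1.52 for Csf2rb and 0.26 for Csf3r, 0 genes passed, and 376 (694 without the block) had an unadjusted p-value under 0.05, Csf1 but not Csf1r among them. With the numbers crossed, an added pairing, 160 genes passed.

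Leaving out each library in turn gave 0.22 to 1.57 for Csf1, 0.57 to 1.71 for Il34, 0.25 to 0.98 for Csf1r, -0.0038 to 0.35 for Csf2ra, 0.003 to 2.65 for Csf2rb and 0.05 to 0.47 for Csf3r, and 0 to 256 genes passed. Without anti-A, Csf1 (adjusted p = 0.00156), Csf1r (0.00667) and Csf2rb (0.00429) passed by edgeR, with 1 library left in that group, assumed to vary like the NC libraries. Without anti-B, Csf2ra changed sign, to -0.0038. The cause of these shifts was not tested.

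The mean log2 TPM ratio of Il34 over the pairs was 1.20, and 0.56 with a pseudocount of 1 TPM, and a pseudocount draws ratios of such low genes towards 0. Depth limits Il34, Csf2rb and Csf3r most, with 5 to 31 counts in nearly all libraries.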
